A study of Mus musculus with 12 samples.

Results

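The transforming growth factor beta (TGF-beta) genes described here are 10 of the 24391 gene symbols in the count files: the ligands Tgfb1, Tgfb2 and Tgfb3, the ligand-binding protein Ltbp1, the receptors and co-receptors Tgfbr1, Tgfbr2, Tgfbr3 and Tgfbr3l, the signal carrier Smad3 and the matrix protein Tgfbi. They were taken by symbol. Tgfbr3l was chosen by its low level in tamoxifen-treated anterior palate, and Tgfb2 and Tgfbi were chosen by their low level in the anterior relative to the posterior palate of controls. Values of the 10 genes in those 2 comparisons are therefore given below as descriptions, without a p-value. Tgfbr3l, Tgfb2 and Tgfbi also have no p-value in other comparisons that share the libraries by which they were chosen, which leaves a test of Tgfbr3l in the posterior tamoxifen comparison and of Tgfb2 and Tgfbi between regions under tamoxifen. Each of the 10 passed the filter on low counts, as did 15958 symbols in all.

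TGF-beta ligands are secreted bound to a propeptide, and latent binding proteins such as the product of Ltbp1 tie this inactive complex to the extracellular matrix until it is released. Free ligand joins the receptor kinases encoded by Tgfbr2 and Tgfbr1, which phosphorylate Smad2 and Smad3, while betaglycan, the product of Tgfbr3, presents ligand to the kinases. In the mouse palate, loss of Tgfb3 leaves shelves that meet but do not fuse, loss of Tgfb2 causes cleft palate in part of the embryos, and loss of Tgfbr2 from cranial neural crest cells causes cleft palate as well. Tgfbr3l encodes a small relative of betaglycan that is known in mice as a co-receptor for inhibin B in pituitary gonadotrophs.

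RNA was sequenced from the palatal shelves of mouse embryos (strain C57BL/6, age E13.5), the outgrowths that later meet and close the roof of the mouth. The 4 groups of 3 libraries were anterior palate under tamoxifen (TAM_AP), anterior palate of controls (con_AP), posterior palate under tamoxifen (TAM_PP) and posterior palate of controls (con_PP). Tamoxifen binds oestrogen receptors and blocks or activates them depending on the tissue, and the series title states that it induces cleft palate in mice. The sources used here do not give its dose, route and day, the treatment of controls, or whether a library is 1 embryo, a litter or a pool, so p-values measure the spread between these libraries, which may be technical. Library totals ran from 39.4 to 73.0 M counts, with the highest in TAM_AP replicate 1. Levels are given as CPM, the counts relative to library totals scaled by TMM, levels carry the SD over 3 libraries and log2 fold changes their standard error (SE), and a gene was called at an adjusted p under 0.05 (edgeR quasi-likelihood test, Benjamini-Hochberg over all 15958 genes).

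The tissue labels were checked against marker genes. All 8 palatal mesenchyme markers were above 1 CPM, with summed levels of 7540 to 10500 CPM in TAM_AP, 9010 to 9570 CPM in con_AP, 10200 to 16900 CPM in TAM_PP and 13800 to 16400 CPM in con_PP. Among pituitary markers, the hormone gene Gh and the regulator Lhx4 were at 0 in all 12 libraries, and the gonadotroph genes Fshb, Cga and Gnrhr had group means of at most 0.058 CPM. In bulk tissue, fewer cells of a type and less RNA per cell cannot be told apart.

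On the counts as deposited, the receptor genes differed from controls in opposite directions under tamoxifen. Tgfbr3l stood at 0.307 times its control level in the anterior and 0.43 times in the posterior shelf, while the counts of Tgfbr1, Tgfbr2 and Tgfbr3 were 1.23 to 1.68 times their control levels in both parts. Among ligands, Tgfb2 was 1.53-fold higher under tamoxifen anteriorly and 1.37-fold higher posteriorly, whereas Tgfb1 was at 0.647 and 0.781 times its control level, the second value without a call. A trend of the libraries with transcript length and GC content is described below. With it removed, the log2 fold change was 0.23 and 0.21 for Tgfb2 and -0.42 and -0.26 for Tgfb1, the last again without a call. With the trend of coding transcripts removed, Tgfb2 was at 0.18 in each part and Tgfb1 at -0.01 anteriorly and -0.06 posteriorly. The excess of the 3 longer receptor genes lay along the same trend and was not called posteriorly once that trend had been removed. The lower level of Tgfbr3l was called posteriorly with and without it.

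Each library's level is shown for the 10 genes.

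**Figure D1:**
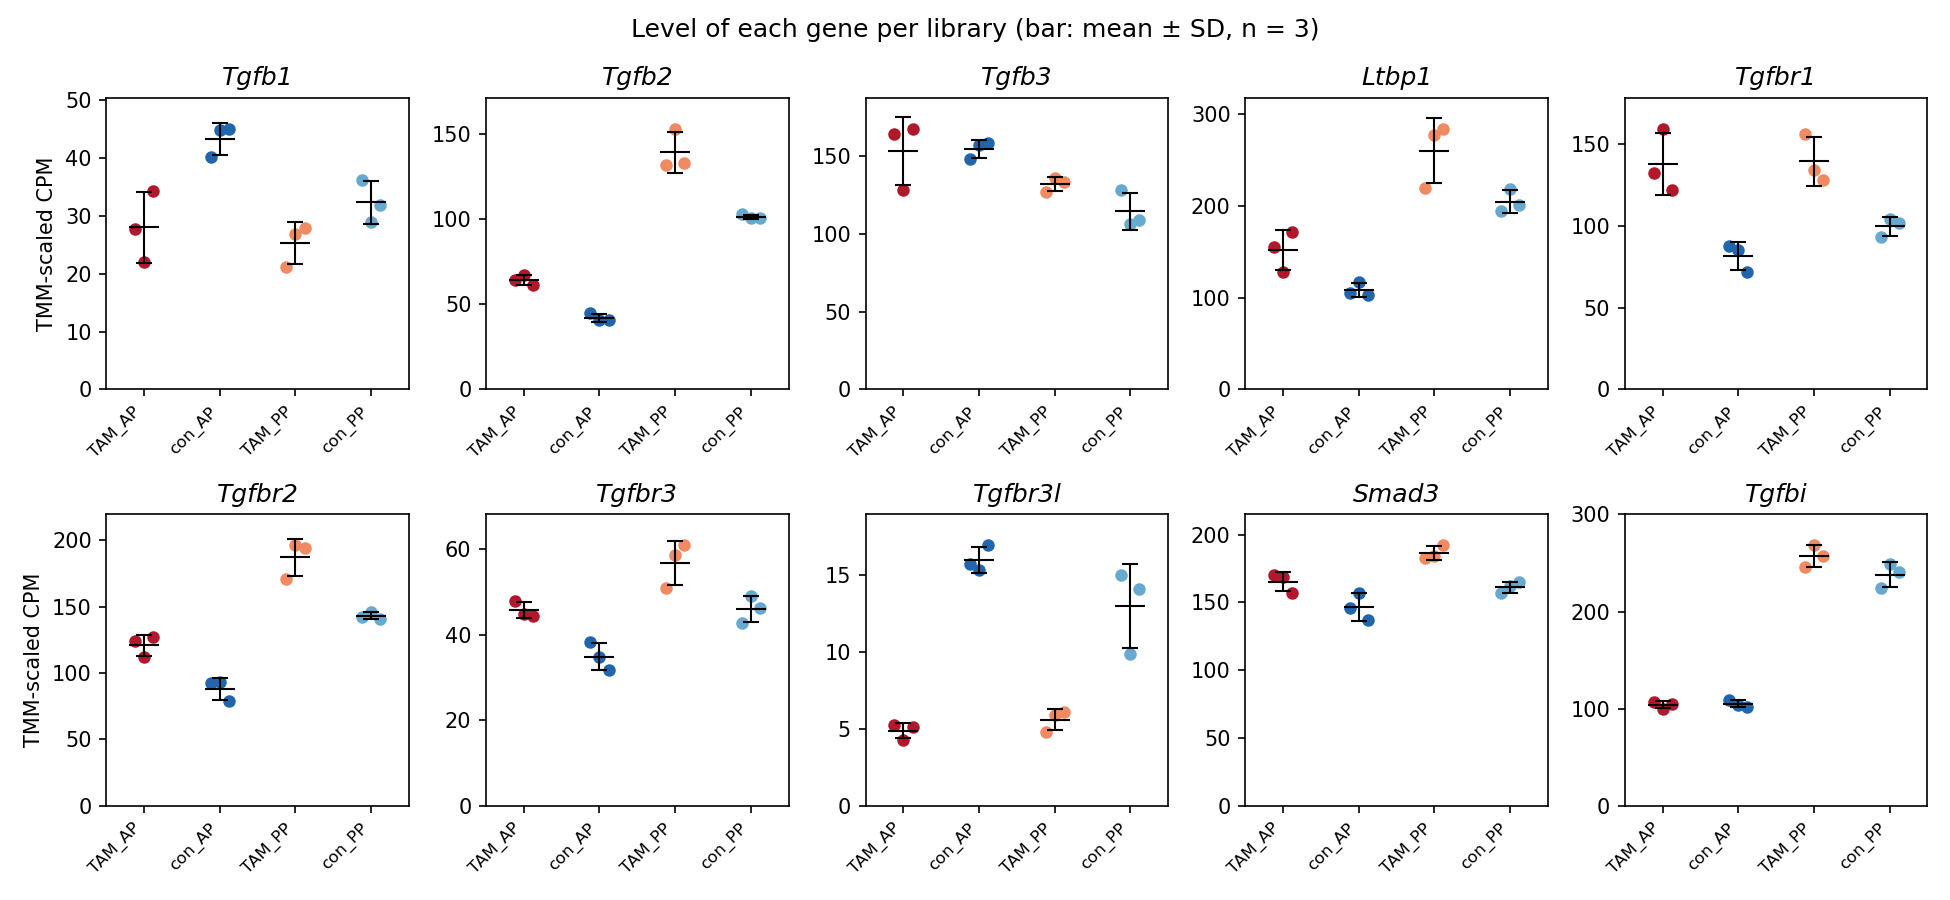
Level of each gene in TMM-scaled CPM (vertical axes, starting at 0) in the 3 libraries of TAM_AP, con_AP, TAM_PP and con_PP; points are libraries and bars the mean ± SD (n = 3). Tgfbr3l lies between 4.3 and 6.09 CPM in the 6 tamoxifen libraries and between 9.88 and 16.9 CPM in the 6 controls, while Tgfb2 and Tgfbi differ mainly between anterior and posterior libraries.

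Among the ligands, Tgfb1 had 27.7, 22.1 and 34.4 CPM in TAM_AP against 40.2, 44.9 and 45 CPM in con_AP, and 21.2, 26.8 and 27.9 CPM in TAM_PP against 36.2, 28.9 and 31.9 CPM in con_PP. All tamoxifen values lay below the control values of the same part. Across all genes the groups did not overlap for 56.5% in the anterior and for 48% in the posterior comparison. The anterior log2 fold change of Tgfb1 was -0.63 (SE 0.14), and the posterior one of -0.36 (SE 0.14) was not called (edgeR adjusted p = 0.069). Without TAM_AP replicate 2 or replicate 3 in the shared fit, the posterior value was called (adjusted p = 0.017 and 0.023, range over the 12 fits without 1 library 0.017 to 0.24). It was also called by DESeq2 (adjusted p = 0.046) and in a fit of only the 6 posterior libraries (adjusted p = 0.019). B9d2, a neighbour of Tgfb1 on the same strand without overlap, was also lower anteriorly under tamoxifen. Its log2 fold change was -0.84 (SE 0.13, edgeR adjusted p = 6.5e-05), and -0.32 with the length and GC trend removed (adjusted p = 0.018). Posteriorly B9d2 had 10.2, 10 and 10.9 CPM in TAM_PP against 16.3, 15 and 14.4 CPM in con_PP.

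Tgfb2 had 64.6, 67.1 and 61.4 CPM in TAM_AP against 44.8, 40.7 and 40.9 CPM in con_AP. Its posterior levels were 132, 153 and 133 CPM in TAM_PP against 103, 101 and 101 CPM in con_PP. Every tamoxifen library exceeded every control library of its part. The log2 fold change was 0.61 (SE 0.07) anteriorly and 0.45 (SE 0.07) posteriorly, where it ranged from 0.39 to 0.49 when any 1 library was left out.

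Tgfb3, the ligand of the medial edge epithelium along which the shelves fuse, had 164, 128 and 167 CPM in TAM_AP against 148, 157 and 158 CPM in con_AP, with overlapping groups. Posteriorly it had 127, 136 and 133 CPM in TAM_PP against 128, 106 and 109 CPM in con_PP, again with overlap. The log2 fold change was -0.01 (SE 0.10) anteriorly and 0.20 (SE 0.10) posteriorly, where it was not called (edgeR adjusted p = 0.12). The annotation places Ttll5 across Tgfb3 on the opposite strand, at 20.1 to 30.1 CPM in these libraries, and whether reads were counted by strand is not stated in the sources used here.

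Ltbp1 had 155, 128 and 171 CPM in TAM_AP against 105, 117 and 103 CPM in con_AP. Its posterior values were 219, 277 and 283 CPM in TAM_PP against 194, 218 and 201 CPM in con_PP. Neither pair of groups overlapped, although TAM_PP replicate 1 at 219 CPM was next to the highest control at 218 CPM. The log2 fold change was 0.49 (SE 0.11) anteriorly and 0.34 (SE 0.11) posteriorly (edgeR adjusted p = 0.027). The posterior call was lost without con_PP replicate 1 or 3 or TAM_PP replicate 2 or 3 (adjusted p = 0.1, 0.085, 0.093 and 0.11).

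The sequences upstream of the start sites of Tgfb2 and Ltbp1 are shown because these genes were both higher under tamoxifen and both lower in the anterior shelf. RefSeq start sites in GRCm38.p6 gave 250 bases for 8 of the 10 genes, in 10 windows. Capitals mark the Smad box CAGAC, the TATA box TATAAA and the cyclic AMP response element TGACGTCA on either strand. Coordinates are of that build and not of the older build behind the counts.
Tgfb2, chr1:186705990-186706239, minus strand: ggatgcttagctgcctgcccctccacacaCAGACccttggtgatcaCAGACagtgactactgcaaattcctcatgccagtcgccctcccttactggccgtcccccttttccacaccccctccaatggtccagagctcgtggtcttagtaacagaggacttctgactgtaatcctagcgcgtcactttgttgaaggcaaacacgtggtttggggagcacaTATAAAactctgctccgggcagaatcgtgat
Ltbp1, chr17:75005279-75005528, plus strand: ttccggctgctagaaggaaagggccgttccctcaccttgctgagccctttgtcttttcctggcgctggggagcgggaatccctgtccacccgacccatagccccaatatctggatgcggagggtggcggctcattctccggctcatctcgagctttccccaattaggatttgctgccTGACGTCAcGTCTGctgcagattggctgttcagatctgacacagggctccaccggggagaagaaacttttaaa
The Tgfb2 window held 2 Smad boxes and 1 TATA box, the only TATA box among the 10 windows. The Ltbp1 window held 1 cyclic AMP response element with 1 Smad box beside it on the other strand. A second start site of Ltbp1 has a window with 2 Smad boxes and 0 cyclic AMP response elements. Tgfbr2, which shared the pattern of these genes, has 1 Smad box and none of the other motifs in its window, which is not shown. Of 32851 promoter windows of the same length, 42.2% held CAGAC, 12.4% TATAAA and 1.55% TGACGTCA. A match describes letters and is not a binding site.

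Of the receptor kinases, Tgfbr1 (the type I receptor) had 132, 159 and 122 CPM in TAM_AP against 87.4, 85.5 and 71.9 CPM in con_AP. In the posterior part the values were 156, 134 and 128 CPM in TAM_PP against 93, 104 and 102 CPM in con_PP. The groups did not overlap in either part. Its log2 fold changes of 0.75 (SE 0.11) anteriorly and 0.48 (SE 0.10) posteriorly (edgeR adjusted p = 0.0039) were the largest excesses among the 10 genes on the counts as deposited.

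Tgfbr2, the type II receptor, had 124, 112 and 127 CPM in TAM_AP against 92.2, 93.3 and 78.7 CPM in con_AP. For the posterior shelf the values were 171, 196 and 194 CPM in TAM_PP against 142, 146 and 141 CPM in con_PP. All tamoxifen libraries were above all controls of the same part, by a log2 fold change of 0.46 (SE 0.08) anteriorly and 0.39 (SE 0.08) posteriorly (edgeR adjusted p = 0.003). Tgfbr3, betaglycan, averaged 45.8 ± 1.97 CPM in TAM_AP and 34.9 ± 3.2 CPM in con_AP, and 56.8 ± 5.2 CPM in TAM_PP and 46 ± 3.1 CPM in con_PP (SD, n = 3 each). Its groups did not overlap, with log2 fold changes of 0.39 (SE 0.09) and 0.30 (SE 0.09, edgeR adjusted p = 0.017 posteriorly). That posterior call was lost without con_PP replicate 1 or 3 or TAM_PP replicate 2 or 3 (adjusted p = 0.087, 0.053, 0.059 and 0.076).

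Tgfbr3l had 5.24, 4.3 and 5.1 CPM in TAM_AP against 15.7, 15.3 and 16.9 CPM in con_AP, from 389, 192 and 230 counts and 633, 631 and 721 counts. It had 4.79, 5.91 and 6.09 CPM in TAM_PP against 15, 9.88 and 14.1 CPM in con_PP, from 245, 278 and 273 counts and 714, 414 and 680 counts. Every tamoxifen library was below every control library of either part, and the lowest control was con_PP replicate 2. The gene was 3.26-fold lower anteriorly (log2 fold change -1.70, SE 0.15) and fell 2.33-fold posteriorly (log2 fold change -1.22, SE 0.15, edgeR adjusted p = 0.00025). Leaving out any 1 library gave posterior log2 fold changes of -1.38 to -1.10 with adjusted p of at most 0.0032.

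The window upstream of Tgfbr3l is shown because this gene had the largest fall among the members. Capitals mark the GC box GGGCGG and GGTCA, a single arm of the oestrogen response element, both here on the reverse strand (as CCGCCC and TGACC).
Tgfbr3l, chr8:4247964-4248213, plus strand: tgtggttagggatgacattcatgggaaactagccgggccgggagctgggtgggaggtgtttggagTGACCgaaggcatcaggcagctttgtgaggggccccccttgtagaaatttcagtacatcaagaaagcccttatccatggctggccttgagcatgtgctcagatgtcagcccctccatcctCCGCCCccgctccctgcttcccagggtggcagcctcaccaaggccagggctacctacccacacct
The window held 1 GC box, which 32.7% of promoter windows had, and 1 copy of GGTCA, which 35.2% had. Nothing about receptor binding follows from these letters.

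The genes on either side of Tgfbr3l lie on the same strand and were measured in the same libraries. Map2k7, a kinase of the JNK pathway upstream of it, stayed between 85.4 and 96.4 CPM in all 12 libraries. Tgfbr3l amounted to 5.99, 4.81 and 5.94% of the Map2k7 counts in TAM_AP and 16.3, 15.8 and 18.6% in con_AP, and to 5.6, 6.67 and 6.66% in TAM_PP and 16, 11.1 and 15.2% in con_PP. Map2k7 itself had log2 fold changes of -0.11 (SE 0.06, edgeR adjusted p = 0.16) anteriorly and -0.05 (SE 0.06, adjusted p = 0.56) posteriorly, with no call. Snapc2, a subunit of the small nuclear RNA activating complex, had log2 fold changes of -0.45 (SE 0.08, adjusted p = 0.00016) and -0.21 (SE 0.08, adjusted p = 0.05, no call), and of 0.09 and 0.08 with the length and GC trend removed. Another annotated protein-coding gene, Gm49320, overlaps Tgfbr3l on the same strand and has no row in the count files, so reads from shared sequence cannot be told apart.

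**Figure D2:**
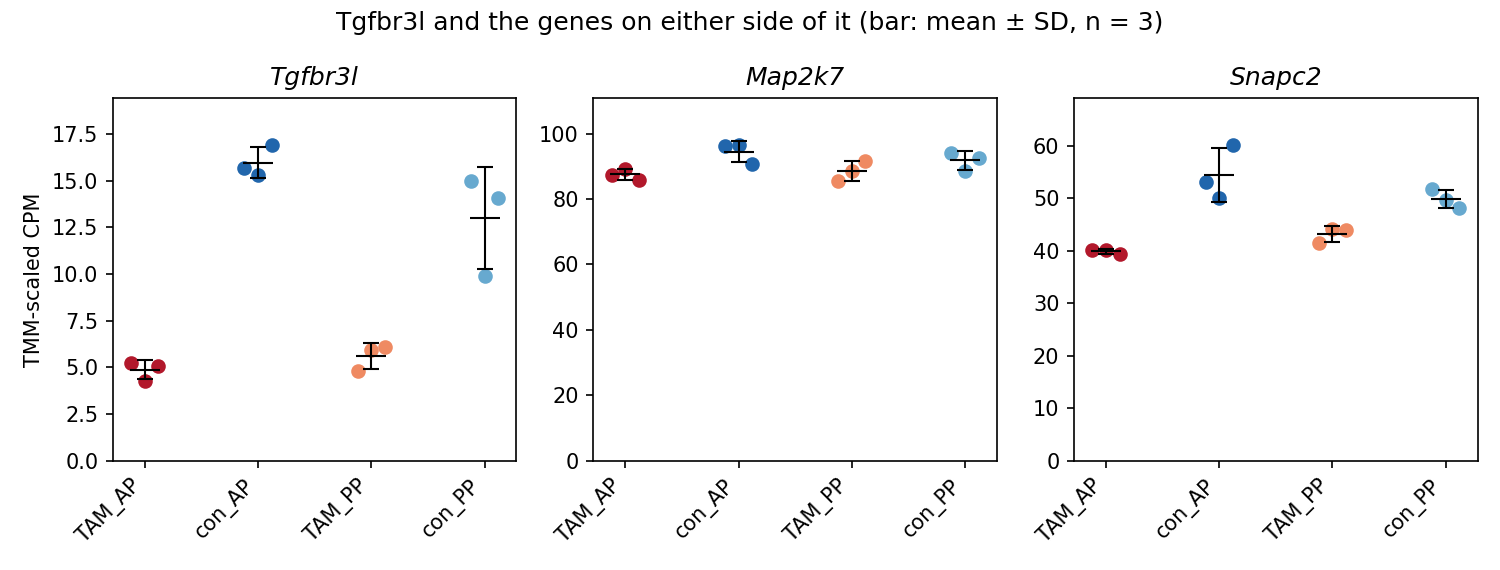
Levels in TMM-scaled CPM (vertical axes, starting at 0) of Tgfbr3l and of its neighbours Map2k7 and Snapc2 in TAM_AP, con_AP, TAM_PP and con_PP; points are libraries and bars the mean ± SD (n = 3). Tgfbr3l separates the 6 tamoxifen libraries (4.3 to 6.09 CPM) from the 6 controls (9.88 to 16.9 CPM), while Map2k7 stays between 85.4 and 96.4 CPM.

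Smad3 had 170, 169 and 157 CPM in TAM_AP against 146, 157 and 137 CPM in con_AP, and 183, 184 and 192 CPM in TAM_PP against 157, 162 and 165 CPM in con_PP. The anterior groups lay next to each other at 157 CPM and the posterior groups did not overlap. Its log2 fold change was 0.17 (SE 0.07) anteriorly and 0.21 (SE 0.07) posteriorly (edgeR adjusted p = 0.03), and the posterior call held in 2 of the 12 fits that left out 1 library (adjusted p from 0.017 to 0.11). The fits that kept it were those without con_AP replicate 3 or without TAM_AP replicate 2. Tgfbi, a matrix protein named for its induction by TGF-beta, averaged 104 ± 3.76 CPM in TAM_AP and 105 ± 3.31 CPM in con_AP, and 257 ± 11.2 CPM in TAM_PP and 238 ± 12.8 CPM in con_PP (SD, n = 3 each). Its groups overlapped in both parts, with log2 fold changes of -0.01 (SE 0.07) and 0.11 (SE 0.07).

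In counts, 6 of the 10 genes were called higher and 1 lower under tamoxifen in the posterior shelf, where 29% of all genes were called (17.3% higher and 11.7% lower). The median log2 fold change was 0.26 over the 10 genes and 0.02 over all genes. The count was 4 in place of 7 without con_PP replicate 1, con_PP replicate 3, TAM_PP replicate 2 or TAM_PP replicate 3. For the anterior shelf, from which a member was chosen, 6 were called higher and 2 lower, beside 49.7% of all genes (25.6% higher and 24% lower). The median there was 0.28, against -0.02 over all genes.

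**Figure D3:**
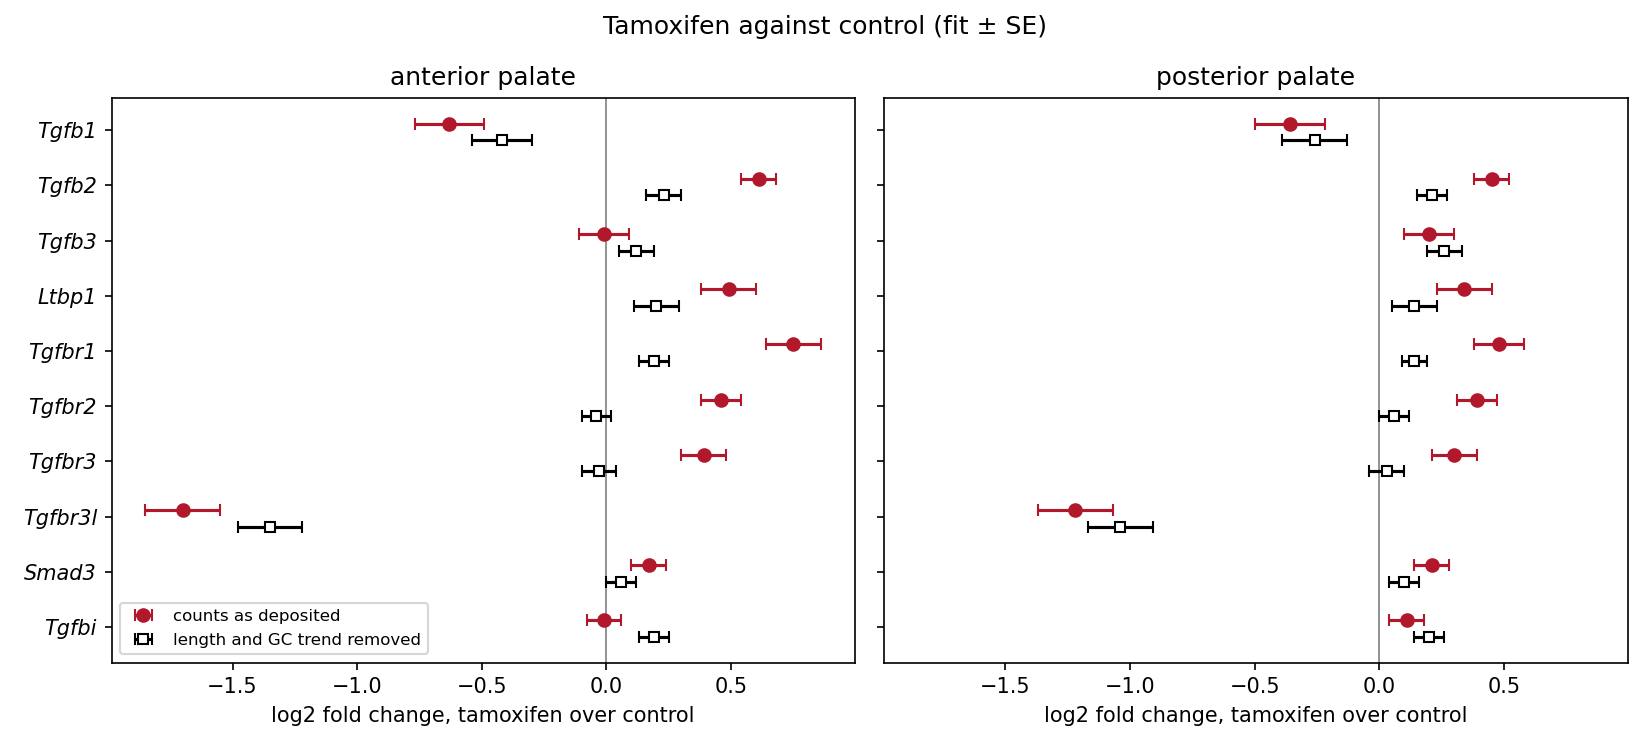
Log2 fold change, tamoxifen over control, of the 10 genes in the anterior (left) and posterior (right) palate; filled points are the counts as deposited, open squares the values with the length and GC trend removed, and bars ± SE of the fit. Tgfbr3l lies at -1.70 and -1.22 as deposited and at -1.35 and -1.04 with the trend removed, whereas Tgfbr2 and Tgfbr3 move to within 0.06 of 0 in both parts.

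A trend with transcript length and GC content went with these receptor values. Over 15839 genes, the tamoxifen log2 fold change had a Spearman correlation of 0.54 anteriorly and 0.48 posteriorly with transcript length, and of -0.52 and -0.41 with GC content (a description across genes, which are not independent replicates). Tgfbr2 with a longest transcript of 8092 bases, Tgfbr3 with 6087 and Tgfbr1 with 5756 bases and 41% GC sit where the trend was higher under tamoxifen. Tgfbr3l, at 2546 bases and 55.6% GC, sits where it was lower. The trend was fitted on these same counts and goes with treatment. Whether it is technical or an effect of tamoxifen was not tested, so its removal may also take away a tamoxifen effect. The fitted shift in the anterior comparison was 0.56 for Tgfbr1, 0.51 for Tgfbr2, 0.42 for Tgfbr3, 0.38 for Tgfb2 and -0.36 for Tgfbr3l, in log2 units.

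Removing the trend from each library left 3 of the 10 genes called higher and 1 lower in the posterior comparison, beside 17.9% of all genes (7.73% higher and 10.2% lower). The log2 fold change of Tgfbr3l was then -1.04 (edgeR adjusted p = 2e-04) and that of Tgfb2 0.21. Tgfb3 was called higher at 0.26 (adjusted p = 0.019), and Tgfbi stood at 0.20. The receptor genes Tgfbr1 at 0.14 (adjusted p = 0.095), Tgfbr2 at 0.06 (adjusted p = 0.5) and Tgfbr3 at 0.03 (adjusted p = 0.81) had no call, nor had Ltbp1 at 0.14 (adjusted p = 0.31) or Smad3 at 0.10 (adjusted p = 0.24). Anteriorly the values were -1.35 for Tgfbr3l, -0.42 for Tgfb1, 0.23 for Tgfb2, 0.19 for Tgfbr1, 0.20 for Ltbp1, 0.12 for Tgfb3 and 0.06 for Smad3. Signs turned for Tgfbr2 at -0.04, Tgfbr3 at -0.03 and Tgfbi at 0.19. Called there were 3 higher and 2 lower, beside 32.7% of all genes (16.2% higher and 16.6% lower).

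The trend values depend on which transcript stands for a gene. The longest annotated transcripts of Tgfbr3l, Tgfb1 and Tgfbi are longer than their longest coding transcripts. Those have 1075 bases with 64.3% GC, 2175 bases with 62.5% GC and 2714 bases with 52.9% GC. With coding transcripts throughout, an alternative chosen after seeing the data, the log2 fold change of Tgfbr3l was -0.90 anteriorly and -0.79 posteriorly (edgeR adjusted p = 0.00048), and the posterior range over all 22 alternatives was -1.38 to -0.79. The same alternative put Tgfb1 at -0.01 anteriorly and Tgfb2 at 0.18 posteriorly. It left Tgfb3 at 0.21 posteriorly without a call (edgeR adjusted p = 0.054). The posterior excess of Tgfb3 was called in 2 of the 22 alternatives.

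**Figure D4:**
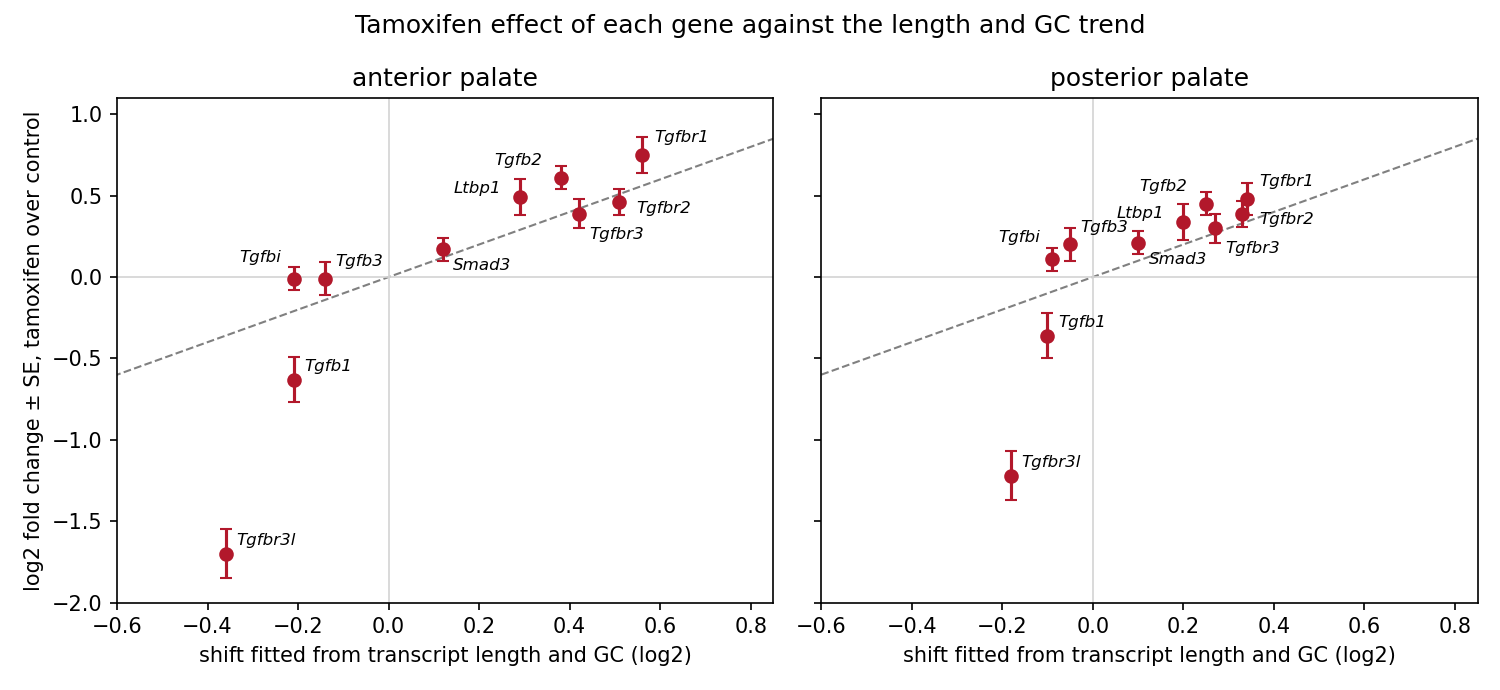
Log2 fold change ± SE, tamoxifen over control (vertical axis), of the 10 genes against the shift fitted from transcript length and GC (horizontal axis, log2), in the anterior (left) and posterior (right) palate; on the dashed line the fold change equals the shift. Tgfbr2 and Tgfbr3 lie on or next to the line in both parts, and Tgfbr3l lies below it, at -1.70 against a shift of -0.36 anteriorly and -1.22 against -0.18 posteriorly.

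The difference between the tamoxifen effects of the 2 parts was tested as an interaction. Of all genes 0% were called by edgeR, although 2110 had an unadjusted p under 0.05 and DESeq2 called 179, none of them a member. The members other than Tgfbr3l, Tgfb2 and Tgfbi had edgeR adjusted p of 0.44 to 0.89. Given as descriptions, the anterior minus the posterior log2 fold change was -0.49 (SE 0.22) for Tgfbr3l, 0.16 (SE 0.10) for Tgfb2 and -0.12 (SE 0.09) for Tgfbi. With the trend removed they were -0.31, 0.02 and -0.01.

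Anterior and posterior shelves differed most for Tgfb2, Tgfbi, Ltbp1 and Tgfbr2, all lower anteriorly in both treatments. These 4 are named here after their values in both treatments were seen. In tamoxifen libraries, which did not serve to choose Tgfb2 and Tgfbi as members, Tgfb2 was 2.17-fold and Tgfbi 2.47-fold lower in the anterior shelf. Ltbp1 was 1.71-fold and Tgfbr2 1.55-fold lower there. Tgfbr1, Tgfb1, Tgfb3 and Smad3 had no regional call there.

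Under tamoxifen, Tgfb2 averaged 64.4 ± 2.89 CPM in TAM_AP and 139 ± 11.3 CPM in TAM_PP (SD, n = 3 each), with a log2 fold change of -1.12 (SE 0.07, edgeR adjusted p = 9.3e-09). Tgfbi had 107, 99.9 and 105 CPM in TAM_AP against 246, 268 and 257 CPM in TAM_PP, with a log2 fold change of -1.30 (SE 0.07, adjusted p = 7.6e-10). The groups of both genes were far apart, whereas 33.1% of all genes had groups without overlap. Ltbp1 had a log2 fold change of -0.78 (SE 0.11, adjusted p = 5.9e-05), Tgfbr2 of -0.63 (SE 0.08, adjusted p = 2.2e-05) and Tgfbr3 of -0.31 (SE 0.09, adjusted p = 0.02). The call of Tgfbr3 was lost without TAM_AP replicate 2 or 3 or TAM_PP replicate 2 or 3 (adjusted p = 0.053, 0.058, 0.081 and 0.1).

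Among the other genes under tamoxifen, Tgfbr1 had a log2 fold change of -0.02 (SE 0.10, edgeR adjusted p = 0.93). Tgfbr3l, whose choice used the TAM_AP libraries, had one of -0.19 (SE 0.16), given as a description. Smad3 stood at -0.17 (SE 0.07, adjusted p = 0.093), Tgfb1 at 0.15 (SE 0.14, adjusted p = 0.52) and Tgfb3 at 0.21 (SE 0.10, adjusted p = 0.15). Tgfb3 was called higher in the anterior shelf with the trend removed (0.29, adjusted p = 0.005) and without TAM_AP replicate 2 (0.33, adjusted p = 0.0071). In all, 5 of the 10 genes were called lower and 0 higher anteriorly, beside 17.8% of all genes (10.2% lower and 7.6% higher), with a median log2 fold change of -0.25 over the 10 genes and 0.02 over all genes. With the trend removed 1 was called higher and 5 lower, beside 24.9% of all genes (13.9% higher and 11% lower).

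In controls, the comparison that chose 2 members, Tgfb2, Tgfbi, Ltbp1 and Tgfbr2 were lower anteriorly as well. Tgfb2 had 44.8, 40.7 and 40.9 CPM in con_AP against 103, 101 and 101 CPM in con_PP, and Tgfbi 109, 104 and 102 CPM in con_AP against 224, 249 and 241 CPM in con_PP. Ltbp1 averaged 108 ± 7.52 CPM in con_AP and 204 ± 12 CPM in con_PP, and Tgfbr2 88 ± 8.15 CPM in con_AP and 143 ± 2.77 CPM in con_PP (SD, n = 3 each). Tgfb1 at 43.4 ± 2.74 CPM in con_AP and 32.3 ± 3.66 CPM in con_PP, and Tgfb3 at 154 ± 5.35 CPM in con_AP and 115 ± 11.8 CPM in con_PP, were higher anteriorly. Called were 2 higher and 5 lower of 10, beside 23.3% of all genes (10.2% higher and 13.1% lower), and the same numbers with the trend removed, beside 27% (14.4% higher and 12.6% lower). Groups without overlap made up 41.2% of all genes.

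**Figure D5:**
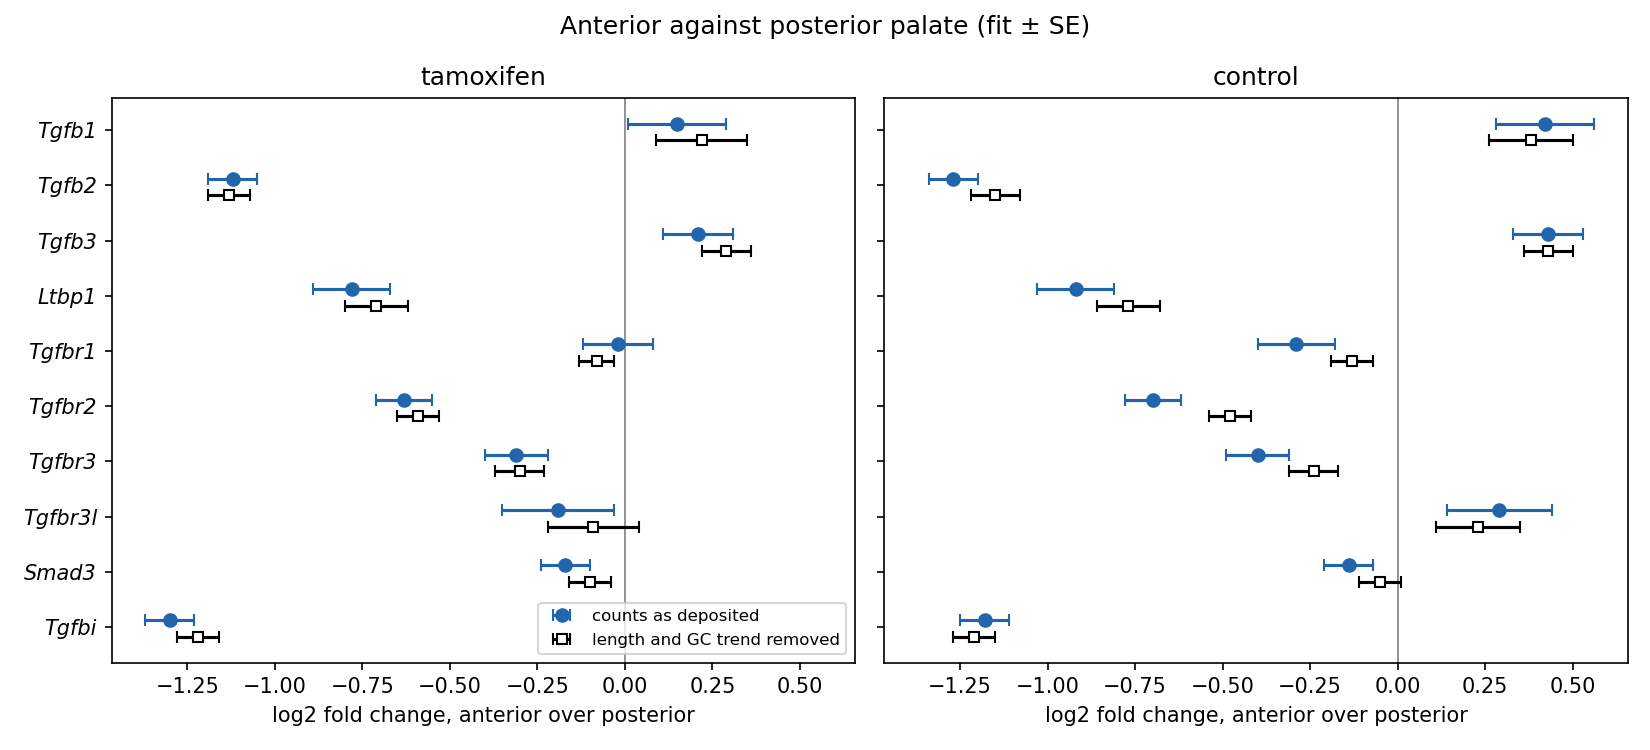
Log2 fold change, anterior over posterior palate, of the 10 genes under tamoxifen (left) and in controls (right); filled points are the counts as deposited, open squares the values with the length and GC trend removed, and bars ± SE of the fit. Tgfb2 and Tgfbi lie between -1.30 and -1.12 as deposited in both treatments, and Tgfbr3l lies within 0.29 of 0.

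Markers of other tissues differed between the same parts. The summed level of 12 skeletal muscle markers was 10.1 to 21.5 CPM in TAM_AP and 767 to 1080 CPM in TAM_PP, and 13 to 30.7 CPM in con_AP and 646 to 718 CPM in con_PP, with all 12 called lower anteriorly in each treatment. Cartilage markers (8 genes) summed to 441 to 531 CPM in TAM_AP and 1560 to 2230 CPM in TAM_PP, and to 534 to 605 CPM in con_AP and 2180 to 2410 CPM in con_PP. Epithelial markers (15 genes) summed to 1470 to 1800 CPM in TAM_AP and 960 to 1260 CPM in TAM_PP, and to 1340 to 1640 CPM in con_AP and 864 to 939 CPM in con_PP. The part of these tissues in the regional values of Tgfb2, Tgfbi, Ltbp1 and Tgfbr2 was not tested. Within a part, the ranges of tamoxifen and control libraries overlapped for muscle and epithelium anteriorly and for cartilage posteriorly. They did not overlap for the other sums: those of muscle and epithelium were higher in TAM_PP than in con_PP, and that of cartilage was lower in TAM_AP than in con_AP. Col2a1 was the largest part of the cartilage sum, at 262 CPM in TAM_AP and 329 CPM in con_AP. Of the single cartilage markers, 2 were called higher and 1 lower anteriorly, beside 49.7% of all genes. Posteriorly, 2 of 12 muscle and 6 of 15 epithelial markers were called higher and 0 lower, beside 29% of all genes. The part of these tissues in the tamoxifen values was not tested.

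Ratios of counts within a library were taken without a correction for transcript length (longest transcripts of 5116 bases for Tgfb2 and 2573 for Tgfb1). They therefore compare libraries and do not rank the 2 ligands. Tgfb2 counts were 2.33, 3.04 and 1.78 times those of Tgfb1 in TAM_AP and 1.11, 0.907 and 0.909 times in con_AP, and 6.25, 5.7 and 4.78 times in TAM_PP and 2.86, 3.5 and 3.16 times in con_PP. The ratio was higher in every tamoxifen library than in any control library of its part. The trend with length and GC enters this ratio, since its anterior shift was 0.38 for Tgfb2 and -0.21 for Tgfb1 in log2 units.

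Per kb of the longest transcript, Tgfb3 was the most abundant ligand, at 45.2 ± 6.47 CPM per kb in TAM_AP, 45.6 ± 1.58 in con_AP, 39 ± 1.44 in TAM_PP and 33.9 ± 3.49 in con_PP. Tgfb2 followed in TAM_AP at 12.6 ± 0.565 CPM per kb, with Tgfb1 at 10.9 ± 2.4, which did not differ beyond the spread. In con_AP, Tgfb1 at 16.9 ± 1.06 CPM per kb stood above Tgfb2 at 8.23 ± 0.446. This order rests on the choice of transcript, since per kb of the median transcript length Tgfb2 at 78.4 CPM per kb stood above Tgfb3 at 45.2 and Tgfb1 at 40.1 in TAM_AP. Among receptors, Tgfbr3l at 1.92 ± 0.2 CPM per kb was the lowest in TAM_AP, below Tgfbr3 at 7.52 ± 0.324, Tgfbr2 at 15 ± 0.949 and Tgfbr1 at 23.9 ± 3.31. In con_AP, Tgfbr3l at 6.26 ± 0.331 and Tgfbr3 at 5.74 ± 0.526 CPM per kb did not differ beyond the spread by longest transcript, while by coding transcript Tgfbr3l was at 14.8 and Tgfbr3 at 5.74.

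The other genes of the pathway were counted in 5 lists, with 92 genes in the files and 90 tested. Posteriorly, 29 rose and 7 fell under tamoxifen, beside 29% of all genes called, and 17 and 9 with the length and GC trend removed, beside 17.9%. Anteriorly 38 rose and 18 fell, beside 49.7% of all genes, and 18 and 11 with the trend removed, beside 32.7%. The median log2 fold change of the 90 genes was 0.16 posteriorly and 0.11 anteriorly, and 0.03 in each part with the trend removed.

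Latency and activation genes had 5 rises and 0 falls among 19 posteriorly, and 7 rises and 1 fall anteriorly, which is no larger a share than that of all genes called (29% and 49.7%). Itgb8, an integrin subunit that releases active ligand from the latent complex, rose to 4.67 ± 1.2 CPM in TAM_PP against 1.84 ± 0.108 CPM in con_PP, 2.54-fold (edgeR adjusted p = 0.00055), and stood at 5.25 ± 0.25 CPM in TAM_AP and 1.09 ± 0.281 CPM in con_AP. Its partner Itgav averaged 96.9 ± 5.99 CPM in TAM_PP and 61.3 ± 6.68 CPM in con_PP, a 1.58-fold rise (adjusted p = 0.00028). Both kept their posterior call with the trend removed, at log2 fold changes of 0.88 (adjusted p = 0.0055) and 0.28 (adjusted p = 0.013). Ltbp3, another latent binding protein, was lower in the anterior shelf under tamoxifen, at 217 ± 43.6 CPM in TAM_AP and 296 ± 15.2 CPM in con_AP.

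Among 11 other receptors and decoys, 1 rose and 1 fell posteriorly, beside 29% of all genes called. Nrp1, a co-receptor of several ligands, rose 1.28-fold (edgeR adjusted p = 0.0019), and Bambi, a decoy receptor without a kinase, fell to 12.9 ± 0.342 CPM in TAM_PP against 16.4 ± 0.573 CPM in con_PP (adjusted p = 0.014). For Bambi the log2 fold change was -0.34 (SE 0.10) as deposited and -0.63 with the trend removed (adjusted p = 0.00057). Anteriorly, 3 of the 11 rose and 3 fell, beside 49.7% of all genes called.

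Smads and their regulators (19 tested) had 10 rises and 0 falls posteriorly, beside 29% of all genes called (17.3% higher and 11.7% lower). Anteriorly there were 9 rises and 4 falls, beside 49.7% of all genes (25.6% higher and 24% lower). Usp9x, a deubiquitinase of Smad4, averaged 189 ± 4.42 CPM in TAM_PP and 95.9 ± 10.5 CPM in con_PP, a 1.97-fold rise (edgeR adjusted p = 3e-04), and 203 ± 14.9 CPM in TAM_AP and 71.5 ± 15.8 CPM in con_AP. Smurf2, a ubiquitin ligase for Smads and receptors, rose 1.44-fold posteriorly (adjusted p = 0.00034). With the trend removed the posterior log2 fold changes were 0.48 for Usp9x and 0.26 for Smurf2, both called. The list then had 4 rises and 4 falls posteriorly, beside 17.9% of all genes called. Pmepa1, an inhibitor of Smad activation, was lower anteriorly under tamoxifen, with log2 fold changes of -0.42 as deposited and -0.39 with the trend removed. Of the inhibitory Smads, Smad7 was at -0.33 and at -0.16 without a call once the trend was removed, and Smad6 was called lower at -0.34 as deposited and higher at 0.18 with the trend removed. Skil, a repressor of Smad target genes, was higher, at 0.89 and 0.24. Skil was named after its values were seen.

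In the non-Smad branch (11 genes), 3 rose and 3 fell posteriorly, beside 29% of all genes called. Among them Tab1, an adaptor of the kinase TAK1, fell to 0.758 times its control level (edgeR adjusted p = 0.00086). With the trend removed 0 rose and 2 fell, beside 17.9% of all genes called. Tab1 was not among these calls (log2 fold change -0.20, adjusted p = 0.054). Of 30 genes induced by TGF-beta in other cells, 10 rose and 3 fell posteriorly, beside 29% of all genes called. With the trend removed 5 rose and 1 fell, beside 17.9% of all genes. Timp3, an inhibitor of metalloproteases, rose to 187 ± 9.17 CPM in TAM_PP against 139 ± 3.21 CPM in con_PP (adjusted p = 0.0013), and Lox, a collagen crosslinking enzyme, to 461 ± 41.6 CPM in TAM_PP against 253 ± 12.2 CPM in con_PP (adjusted p = 0.0039). With the trend removed Timp3 kept its call (0.21, adjusted p = 0.037) and Lox did not (0.61, adjusted p = 0.078). Twist1, a mesenchymal transcription factor, fell to 533 ± 97.1 CPM in TAM_PP against 764 ± 53.3 CPM in con_PP (adjusted p = 0.0044), and kept its call with the trend removed (-0.23, adjusted p = 0.045).

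Between regions under tamoxifen, 6 of the 90 pathway genes were higher and 24 lower anteriorly, beside 17.8% of all genes (7.6% higher and 10.2% lower), and 15 and 27 with the trend removed, beside 24.9%. The list of genes induced by TGF-beta in other cells had 1 higher and 13 lower of 30. Acta2, smooth muscle actin, averaged 26.8 ± 6.71 CPM in TAM_AP and 156 ± 25 CPM in TAM_PP, 5.8-fold lower anteriorly (edgeR adjusted p = 4.1e-08). It was the only 1 of 8 smooth muscle and pericyte markers called lower anteriorly under tamoxifen, and 1 was called higher. Cdkn1a, a cell cycle inhibitor, averaged 10 ± 2.07 CPM in TAM_AP and 35.8 ± 1.7 CPM in TAM_PP, 3.58-fold lower (adjusted p = 1.6e-08). The part of muscle and other tissues in these regional values was not tested. Itgb6, an epithelial integrin subunit that activates latent ligand, was at 0.696 ± 0.0893 CPM in TAM_AP and 2.03 ± 0.604 CPM in TAM_PP (adjusted p = 0.001). In controls 9 were higher and 24 lower anteriorly, beside 23.3% of all genes, and among those lower was Ltbp2, a matrix protein of the latent binding family, at 3.2 ± 0.386 CPM in con_AP and 33.9 ± 6.03 CPM in con_PP.

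Genes with the most similar pattern were named by Pearson's r of log2 CPM over the 12 libraries, among 13674 genes of at least 1 CPM, as a description. For Tgfbr3l these were Cxxc1 (r = 0.989), E4f1 (0.988), Slc9a8 (0.988), Aup1 (0.985) and Sdccag3 (0.985). For Tgfb2 they were Egfl6 (0.993), Fstl1 (0.992), Col25a1 (0.992), Sertad4 (0.991) and Col8a1 (0.990). For Tgfbi they were Cdh18 (0.997), Cdh4 (0.996), Synpo2l (0.996) and the muscle genes Tnnt1 (0.994) and Myog (0.993). Libraries of a group share their region, their treatment and the trend with length and GC.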

How the data were processed

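RNA-seq counts of 12 palate libraries were used, 1 file per library. Per the submitters' processing notes, HISAT2, StringTie and genome build mm9 were used, while the sources used here give no versions, counting program, annotation or strand setting. The values are raw counts per gene symbol as deposited, with no normalization by the authors. Even values made up 57.1 to 60.1% of counts from 1 to 100, so mates may have been counted separately.

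The 10 genes and all lists were chosen with earlier results of these data known. Tests used R 4.3.3 and edgeR 4.0.16: filterByExpr left 15958 genes, with TMM scaling, 1 mean per group and a robust quasi-likelihood fit over 12 libraries (8 residual degrees of freedom). P-values were adjusted over all genes tested (Benjamini-Hochberg) and called under 0.05. DESeq2 1.42.0 was an alternative. An exact test of 3 against 3 cannot go below p = 0.1, so levels have none. All replicate pairs differed beyond counting noise (chi-square per degree of freedom of at least 9.98).

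Length and GC came from the longest GENCODE M21 transcript per symbol (of 24391 symbols, 23348 had an exact match and 646 matched through an older name). Per library, natural splines (4 degrees of freedom each) fitted on genes of mean log2 CPM over 1 were subtracted through the offset. The edgeR fit without trend removal was also run on simulated data with known changes in the anterior comparison. Pathway genes were named by smallest adjusted p, at most 3 per list and direction in each comparison, and examples were taken from these. Some genes of the lists are not reported here. Promoters are RefSeq's, GRCm38.p6.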

Additional observations from a re-analysis of the deposited data

How the results depend on the processing

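Tgfbr3l was called lower under tamoxifen posteriorly in all 22 alternatives (largest adjusted p = 0.0032). Anteriorly, where it was chosen, its log2 fold change of -1.76 to -0.90 over the alternatives is a description. With the length and GC trend removed, 5 of the 10 genes were called anteriorly (5 with the replicate block added, 2 with coding transcripts, against 8), and 4 posteriorly (3 and 2, against 7). Over all genes the counts were 5180, 5000 and 4526 against 7924 anteriorly, and 2843, 2703 and 2370 against 4625 posteriorly. Signs turned anteriorly for Tgfbr2 (-0.04, -0.04 and -0.07), Tgfbr3 (-0.03, -0.03 and -0.07) and Tgfbi (0.19, 0.19 and 0.16). An adjusted p under 0.01 left 4 of the 10 and 2215 genes posteriorly, and 2194 and 1839 genes between regions in controls and under tamoxifen. The interaction had 1 call over all genes with block and trend removal and 179 in DESeq2.

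Leaving out 1 library gave 7 to 8 of the 10 genes and 6564 to 7996 genes anteriorly, 4 to 8 and 2718 to 5492 posteriorly, 6 to 8 and 2488 to 4319 between regions in controls, 4 to 5 and 2085 to 3081 under tamoxifen, and 0 and 0 to 6 for the interaction. Smad3 kept its anterior call in 3 and Tgfb1 its regional call in controls in 6 of these 12 fits. The lowest posterior count over all genes was without con_PP replicate 1, and 2840 and 3069 were called without con_PP replicate 3 and TAM_PP replicate 1. Interaction calls appeared without TAM_AP replicate 2 (3) or 3 (6), con_PP replicate 1 (1) or TAM_PP replicate 3 (1).

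The replicate block alone gave 7 of the 10 and 7800 genes anteriorly, 7 and 4561 posteriorly, 8 and 3711 between regions in controls, 5 and 2811 under tamoxifen, and 0 and 0 for the interaction. Whether equal numbers mark paired samples is not known. The deviations of same-numbered libraries correlated above 0.1 in 2 of 12 pairs, both between regions under tamoxifen (0.13 and 0.11). Differently numbered pairs of that comparison ranged from -0.20 to 0.10. Correlations this small cannot decide whether shelves of the same embryos share a number. Scaling by DESeq2 size factors moved the median of all genes by at most 0.010 (log2). Depth limits Tgfbr3l most, at 192 counts in its lowest library.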
